A study of Mus musculus with 8 samples.

Results

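The trans-synaptic adhesion and LGI1 complex, a set of 8 genes whose proteins join the sides of a synapse across its cleft, was followed through the mouse hippocampus after status epilepticus, a prolonged seizure. The genes were the neurexin genes Nrxn2 and Nrxn3, the neuroligin genes Nlgn1, Nlgn2 and Nlgn3, the ligand gene Lgi1 and the genes of its receptors, Adam22 and Adam23. The set was drawn up with earlier results of these data known, and its members were then found by gene symbol, as every entry of the authors' deposited table that carried one of these symbols. They made up 8 of 20258 genes, 12 of 24921 RefSeq transcripts and 16 of 29112 entries of the table.

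The study sequenced polyadenylated RNA from both hippocampi of C57BL/6 mice killed 12 h, 10 d or 6 wk after the start of status epilepticus, and from control mice labelled as time zero. There were 4 groups of 2 libraries, with the cDNA of 2 animals pooled in every library. No transgene, deletion or drug is named in the labels for any group, and the sources used here do not give the way in which status epilepticus was induced. All 3 comparisons used the same control libraries, so their values are set side by side below and their likeness is not measured.

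Neurexins sit in the presynaptic membrane and bind neuroligins in the membrane opposite, which couples the release site to the receptors that face it. Lgi1 encodes a glycoprotein that neurons secrete into the cleft. It bridges the catalytically inactive membrane proteins ADAM22 and ADAM23, and through the scaffold PSD-95 it holds AMPA receptors and Kv1 channels in place. Loss of LGI1 causes an inherited temporal lobe epilepsy in humans, and mice that lack Lgi1, Adam22 or Adam23 have seizures.

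The authors' deposited table gives, for each transcript and time, a mean signed fold against control, in which a fall is negative, and a mean q-value. Multiplied by 4, every fold of the 12 h, 10 d and 6 wk columns was a whole number of millionths within 0.02, as a mean over all 4 pairs of a seizure library and a control library would be. A transcript was said to rise or fall on a mean q below 0.05 together with a mean fold of size 1 or more, and a gene on at least 1 such transcript with none called the other way. A transcript whose q passed with a mean fold under 1 in size is called mixed here. Where each pair's fold is at least 1 in size, such a mean holds folds of both directions. A mean of size 1 or more can hold both directions too, so a rise or fall need not be shared by all pairs. No usable mRNA value per library was at hand, so values per sample, their spread and the number of reads behind each fold are unknown, and a q made from 1 library against 1 other is about those libraries rather than the conditions. Columns for 1 h and 6 h, with no labelled sample, in which 28.6% and 14.8% of genes passed, are described at the close.

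Adam22 and Adam23 are each listed with a long and a short 3' end, and their forms gave unlike values, so the coding ends that tell the forms apart are shown first. They were read 5' to 3' from the NCBIM37 genome (mm9) at GENCODE vM1 transcripts with the same 3' end, each is the coding part of the last exon up to and including the stop codon, and capitals mark bases in no exon of the other form shown. The Adam22 long form (NM_001098225) ends its coding sequence at chr5:8078686-8078706 and the short form (NM_001007220) at chr5:8092336-8092406, both on the minus strand. The Adam23 long form (NM_011780) ends at chr1:63639182-63639230 and the short form (NM_001177600) at chr1:63619461-63619736, both on the plus strand.
Adam22 long form: CTATGGGAGACATCCATTTAA
Adam22 short form: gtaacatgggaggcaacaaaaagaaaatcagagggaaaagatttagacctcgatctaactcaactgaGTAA
Adam23 long form: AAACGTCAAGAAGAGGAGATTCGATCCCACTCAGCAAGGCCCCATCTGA
Adam23 short form: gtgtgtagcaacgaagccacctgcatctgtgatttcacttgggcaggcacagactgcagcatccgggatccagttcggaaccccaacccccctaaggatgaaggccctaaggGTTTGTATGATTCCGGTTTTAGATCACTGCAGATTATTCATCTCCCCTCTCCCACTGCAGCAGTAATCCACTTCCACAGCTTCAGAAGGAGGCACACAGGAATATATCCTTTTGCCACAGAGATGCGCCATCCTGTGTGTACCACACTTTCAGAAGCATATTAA
In each short form the lower-case bases are shared with the long form, and the capitals that follow open with GT, the letters that begin most introns. The short Adam22 form thus reads on past the point where the long form splices and stops within 4 bases. The short Adam23 form reads on for 164 coding bases. The carboxy terminus of ADAM22 is known for its binding to PSD-95, and the short form lacks the coding bases of the long form's last exons. The remaining Adam22 transcript, NM_001007221, also has a short 3' end and had no GENCODE transcript with that end, so no sequence is shown for it.

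For each of the 4 genes that fell together at 10 d, 1 promoter window is shown as RefSeq gives it in GRCm38.p6. The windows are 300 bases each and run from 250 before to 50 after a gene's start, 5' to 3' on the gene's strand. They lie at chr3:26331860-26332159 (minus) for Nlgn1, chr11:69837735-69838034 (minus) for Nlgn2, chr5:8368111-8368410 (minus) for Adam22 and chr1:63445641-63445940 (plus) for Adam23. Capitals mark matches to 7 motifs searched on both strands.
Nlgn1: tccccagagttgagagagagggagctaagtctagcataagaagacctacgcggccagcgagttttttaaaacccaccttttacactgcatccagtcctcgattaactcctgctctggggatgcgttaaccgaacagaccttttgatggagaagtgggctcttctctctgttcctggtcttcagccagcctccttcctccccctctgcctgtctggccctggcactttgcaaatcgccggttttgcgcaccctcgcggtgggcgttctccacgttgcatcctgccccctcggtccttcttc
Nlgn2: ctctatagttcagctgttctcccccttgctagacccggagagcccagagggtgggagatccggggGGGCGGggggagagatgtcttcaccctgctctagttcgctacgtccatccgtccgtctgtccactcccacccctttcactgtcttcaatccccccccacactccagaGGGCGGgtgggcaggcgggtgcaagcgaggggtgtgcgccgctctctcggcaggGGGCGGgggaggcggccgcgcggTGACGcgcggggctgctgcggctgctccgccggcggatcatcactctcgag
Adam22: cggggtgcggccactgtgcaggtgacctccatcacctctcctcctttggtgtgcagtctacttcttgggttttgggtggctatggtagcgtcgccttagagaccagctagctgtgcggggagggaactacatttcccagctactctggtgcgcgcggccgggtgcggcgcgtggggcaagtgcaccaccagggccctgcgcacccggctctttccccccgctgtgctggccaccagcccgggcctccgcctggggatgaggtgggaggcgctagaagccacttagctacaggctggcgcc
Adam23: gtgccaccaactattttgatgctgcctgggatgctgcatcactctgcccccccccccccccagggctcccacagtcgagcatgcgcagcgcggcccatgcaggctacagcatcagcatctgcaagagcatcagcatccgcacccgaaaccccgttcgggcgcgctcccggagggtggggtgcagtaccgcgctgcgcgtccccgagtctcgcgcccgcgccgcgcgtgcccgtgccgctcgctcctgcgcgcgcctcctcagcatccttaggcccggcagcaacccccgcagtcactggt
Of these 4 windows, only that of Nlgn2 held any of the motifs. It had 3 GC boxes (GGGCGG), which begin at positions -185, -78 and -24 from the start, and 1 match to TGACG, the core of the CREB element, at -1. Of all 32851 RefSeq windows, 35.7% held GGGCGG and 20.8% held TGACG. The other motifs were the full CREB element TGACGTCA, which contains TGACG and was in 1.79% of windows, the AP-1 site TGANTCA in 7.81%, the EGR site GCGTGGGCG in 0.612%, the E-box CACGTG in 7.15% and the TATA box TATAAA in 13.6%. A match is a stretch of letters and not a shown binding site, and no match says nothing of a factor. G and C made up 55.7% of the Nlgn1 window shown, 68.7% of Nlgn2, 66.3% of Adam22 and 70% of Adam23, against a median of 52.7% over all windows. Another Nlgn1 window, at chr3:26153937-26154236 and not shown, had 44.7%, below that median, and none of the motifs. It lies 679 bases from the start of the other Nlgn1 transcript once placed on mm9. The Nlgn2 window belongs to a start 2935 bases upstream of that of the transcript in the table. The shown Nlgn1, Adam22 and Adam23 windows lie 0, 79 and 13 bases from theirs once placed on mm9.

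At 12 h, 2 of the 8 genes changed, Nrxn2 upward and Adam23 downward, where 18.3% of all 16802 genes with a fold changed, 10.5% upward and 7.77% downward. A share of 2 in 8 lies near that background and is no result about these genes. At 10 d, 4 of the 8 changed and all 4 fell: Nlgn1, Nlgn2, Adam22 and Adam23. Of all 17242 genes with a fold at 10 d, 19.7% changed, with 8.04% higher and 11.7% lower. At 6 wk, 5 of the 8 changed, with Nlgn1 and Adam22 higher and Nlgn2, Lgi1 and Adam23 lower, where 22.2% of all 15819 genes changed, 9.97% upward and 12.3% downward. With so few genes, chosen when earlier results of these data were known, these counts are descriptions, and none was tested against the background. The median over the members of each gene's median fold in the authors' deposited table was 0.609 at 12 h, -3.27 at 10 d and 0.958 at 6 wk, beside medians over all genes of 0.568, 0.698 and -0.728 at the same times. Of the 12 transcripts, 1 rose and 1 fell at 12 h, 0 rose and 6 fell at 10 d, and 3 rose, 3 fell and 2 were mixed at 6 wk. Over all transcripts with a fold 18.5% changed at 12 h, 20.1% at 10 d and 22.5% at 6 wk, when 3.95% were mixed. No other gene of the table overlapped the interval of any member.

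**Figure D1:**
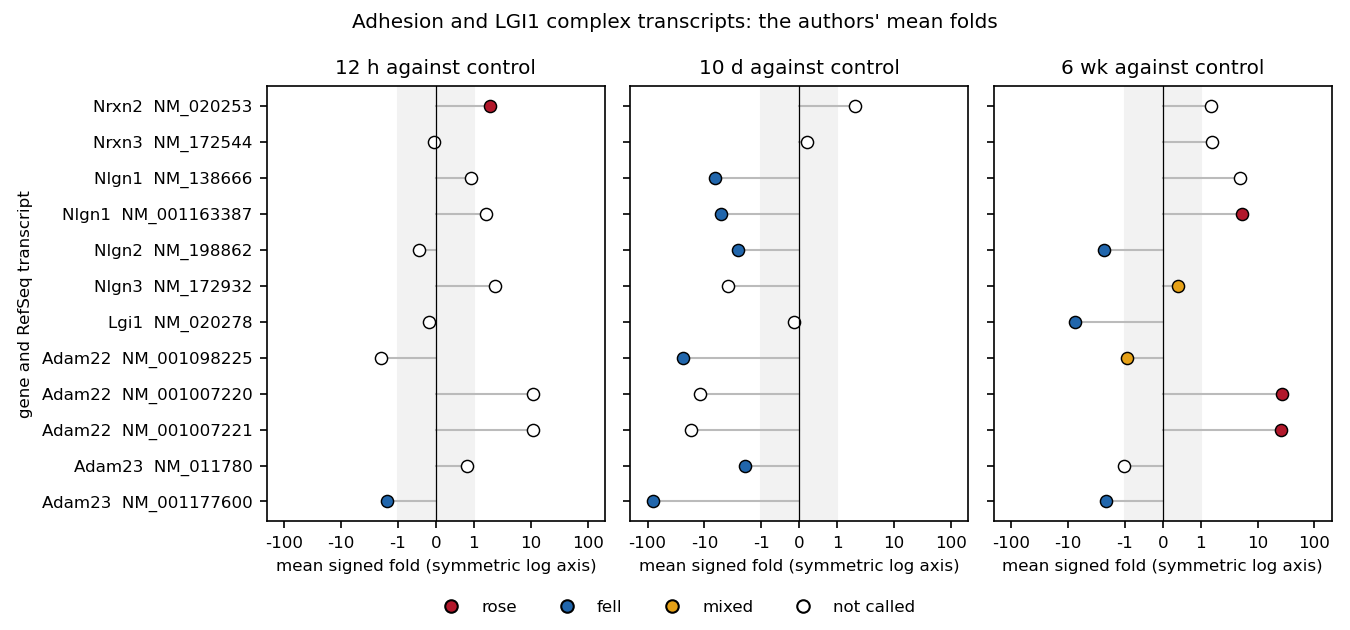
Mean signed fold of the 12 member transcripts at 12 h, 10 d and 6 wk against control, from the authors' deposited table, on a symmetric log axis. Red points rose, blue points fell, orange points passed on q with a mean fold under 1 in size (mixed), open points did not pass, and the grey band spans -1 to 1; the 6 filled points at 10 d all lie left of 0.

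In the plot of folds by transcript, the neurexins are the only members right of 0 at 10 d, though neither passed there. Nrxn2 (NM_020253, chr19:6428016-6533217, plus strand, mm9) encodes a presynaptic receptor for neuroligins and other postsynaptic partners. At 12 h it rose in the authors' deposited table, with a mean fold of 1.95 and a mean q of 4.24e-05. If that q is a mean over 4 pairs, no single pair can exceed 0.000170. Its later folds in the authors' deposited table were of like size, 2.09 at 10 d and 1.51 at 6 wk, but with mean q of 0.235 and 0.225 they did not pass. The 12 h rise was modest for this data set, since 52.6% of transcripts with a fold at 12 h had a larger one in size.

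Nrxn3 (NM_172544, chr12:90191834-91573373, plus strand), a presynaptic receptor of the same family, passed at none of the 3 times. Its mean folds in the authors' deposited table were -0.0595 at 12 h (q = 0.177), 0.192 at 10 d (q = 0.212) and 1.60 at 6 wk (q = 0.110). The means at 12 h and 10 d, under 1 in size, give no common direction over the pairs of libraries. Nrxn3 has 4 entries in the table under this transcript, with identical values.

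Among the neuroligins, the fall at 10 d took in Nlgn1 and Nlgn2. Nlgn1 encodes the neuroligin found mainly at excitatory synapses. It is listed with a transcript from each of a pair of start sites, NM_138666 (chr3:25330763-26230831, minus strand) and NM_001163387 (chr3:25330763-26052229). In bulk tissue, here and for every gene below, fewer cells of a type and less RNA per cell cannot be told apart. At 10 d both Nlgn1 transcripts fell in the authors' deposited table, NM_138666 to a mean fold of -6.42 (q = 2.13e-12) and NM_001163387 to -5.16 (q = 2.55e-12). At 6 wk both had positive folds in the authors' deposited table, 5.44 for NM_001163387 (q = 0.00986), which rose, and 4.86 for NM_138666 (q = 0.148), which did not pass. So Nlgn1 lay below control at 10 d on either transcript and above it at 6 wk on 1 of them. At 12 h the authors' deposited table gives 0.935 for NM_138666 (q = 0.289) and 1.62 for NM_001163387 (q = 0.0860), neither of which passed. The change between 10 d and 6 wk was not tested.

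Nlgn2 (NM_198862, chr11:69636625-69648351, minus strand) encodes the neuroligin of inhibitory synapses, where it binds the scaffold gephyrin. It fell at 10 d, to a mean fold of -2.63 (q = 0.00288), and at 6 wk, to -2.35 (q = 0.000487), in the authors' deposited table. If both q are means over 4 pairs, no single pair can exceed 0.0115 at 10 d or 0.00195 at 6 wk. At 12 h its mean fold in the authors' deposited table was -0.446 with a q of 0.182. Nlgn2 was thus lower than control at both later times, by sizes that 51.7% and 54.2% of transcripts exceeded.

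Nlgn3 (NM_172932, chrX:98494520-98516687, plus strand) encodes a neuroligin found at both kinds of synapse. Its mean folds in the authors' deposited table were 2.35 at 12 h (q = 0.220) and -3.91 at 10 d (q = 0.162), neither of which passed. At 6 wk the authors' deposited table gives a mean fold of 0.410 with a q of 0.00340, so Nlgn3 was mixed. If that q is a mean over 4 pairs, no single pair can exceed 0.0136, while the mean fold under 1 in size gives no common direction. The 3 neuroligins therefore stood at 6 wk in 3 different states, with Nlgn1 higher on 1 transcript, Nlgn2 lower and Nlgn3 mixed.

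Lgi1 (NM_020278, chr19:38339272-38383429, plus strand), the secreted ligand, did not pass at 12 h or 10 d and fell at 6 wk. Its mean folds in the authors' deposited table were -0.191 at 12 h (q = 0.221) and -0.143 at 10 d (q = 0.201). Both means, under 1 in size, give no common direction over the pairs of libraries. At 6 wk the authors' deposited table gives -7.42 with a mean q of 0.0240. A mean of 0.0240 over 4 pairs allows a single pair as high as 0.0958, so this table does not show that every pair passed. A larger fold in size was held by 30.0% of the transcripts with a fold at 6 wk. Lgi1 thus passed at 6 wk, when the short form of its receptor gene Adam23 also fell by this rule. No form of the receptor gene Adam22 fell then: its long form was mixed and its short forms rose.

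Adam22 encodes the LGI1 receptor on the postsynaptic side, and its long and short forms differed. The long form NM_001098225 (chr5:8072352-8368081, minus strand) fell at 10 d to a mean fold of -24.0 (q = 8.66e-16) in the authors' deposited table, a size exceeded by 9.47% of transcripts. No fall of this form passed at 12 h or 6 wk. Its mean folds in the authors' deposited table were -1.95 at 12 h (q = 0.237), which did not pass, and -0.933 at 6 wk (q = 0.0429), which was mixed. The short forms NM_001007220 (chr5:8092260-8368081) and NM_001007221 (chr5:8092300-8368081) rose at 6 wk instead, to 26.9 (q = 1.26e-07) and 25.9 (q = 2.06e-07) in the authors' deposited table. At 12 h and 10 d neither short form passed. At 12 h both had the same mean fold of 11.1 and the same q of 0.248 in the authors' deposited table. At 10 d the authors' deposited table gives them -11.8 (q = 0.378) and -17.5 (q = 0.431). The short forms had large folds at all 3 times and of these passed at 6 wk alone, and the long form passed with a direction at 10 d alone. The gene's calls, lower at 10 d and higher at 6 wk, therefore rested on different transcripts, and the difference between the forms was not tested.

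Adam23 encodes an LGI1 receptor that is mainly presynaptic. Its short form NM_001177600 (chr1:63492478-63619791, plus strand) fell at all 3 times. Its fall at 10 d was far larger than those at the other times. In the authors' deposited table its mean fold was -1.58 at 12 h (q = 1.77e-06), -80.8 at 10 d (q = 8.66e-16) and -2.18 at 6 wk (q = 2.08e-05). Only 1.38% of transcripts had a larger fold in size at 10 d, and its q there is the lowest the column holds, shared by 328 transcripts. The long form NM_011780 (chr1:63492478-63643089) fell, of the 3 times, at 10 d alone, to -1.96 (q = 0.0114) in the authors' deposited table. Its mean folds in the authors' deposited table were 0.828 at 12 h (q = 0.175) and -1.02 at 6 wk (q = 0.0813). Both forms were thus lower at 10 d, by amounts 41.3 times apart in size.

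**Figure D2:**
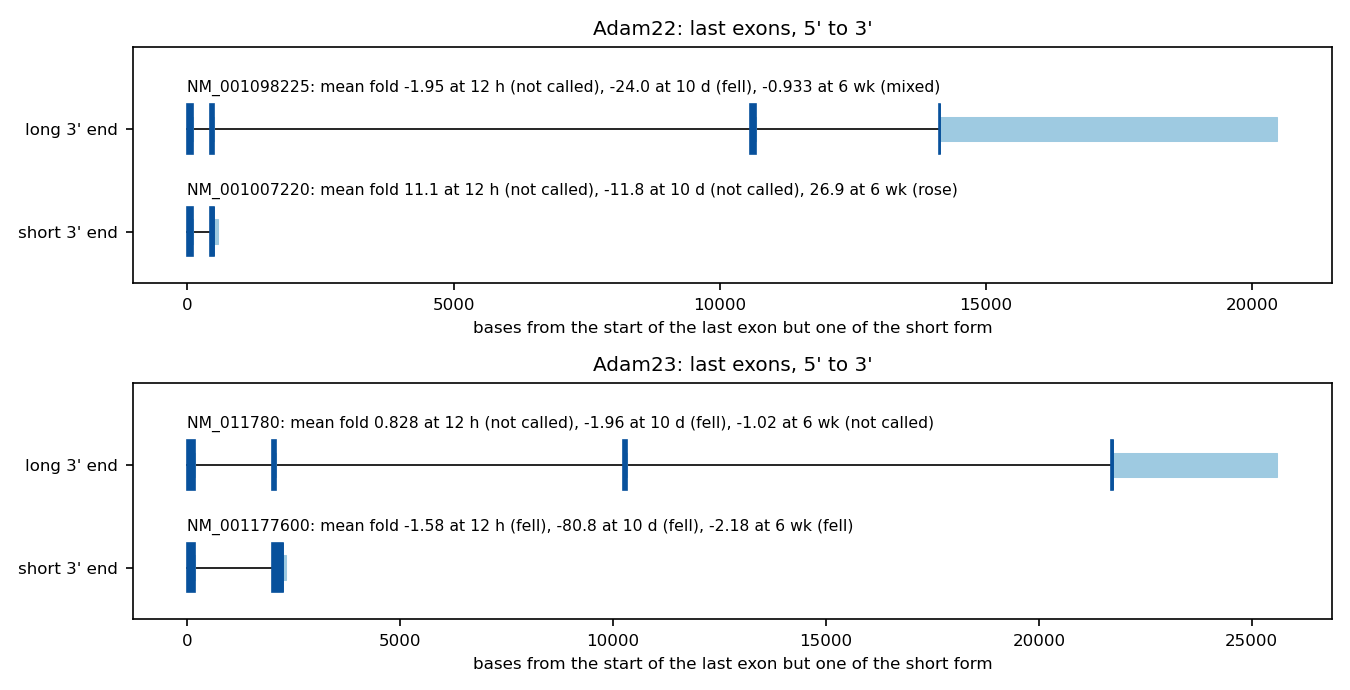
Last exons of the long and short forms of Adam22 and Adam23 (GENCODE vM1, NCBIM37), with distance in bases from the start of the short form's last exon but one; dark blue is coding, light blue is not, and lines are introns. The long last exons are 6355 bases for Adam22 and 3908 for Adam23, the short ones 147 and 331, and the printed values are the authors' mean folds, -24.0 and -11.8 for Adam22 and -1.96 and -80.8 for Adam23 at 10 d.

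The map of the last exons shows how unequal the measured stretches are. Pooled over the 13 GENCODE transcripts matched to it, the Adam22 long form has 6816 exonic bases outside the short form NM_001007220. The map draws 1 of these transcripts. The long form shares 28.3% of its pooled exonic bases with that short form. The short form, matched by 1 transcript, has 80 bases outside the long one and shares 97.1%. NM_001007221, whose exons were not at hand, ends within those 80 bases and was not part of the comparison. The Adam23 long form, pooled over 2 such transcripts, has 3999 bases outside the short one and shares 39.9%. The Adam23 short form, matched by 1, has 232 outside the long one and shares 92.0%. Reads were counted in RefSeq exons where they mapped to 1 place, per the series' design text. The sources used here do not say how a read in a shared exon was assigned to a form, so the form values are uncertain. Whether this bears on the unlike values was not tested.

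Among all genes with 2 or more transcripts, forms mostly gave like values. Their calls differed in 9.19% of 2851 genes at 12 h, 8.46% of 2883 at 10 d and 9.11% of 2755 at 6 wk. The largest and smallest fold of a gene were over 5 times apart in size in 10.3%, 10.4% and 11.1% of genes at these times, with median ratios of 1.01, 1.01 and 1.00. These ratios are of sizes and leave out the sign and whether a fold passed. Folds of both signs were held by 8.98% of these genes at 12 h, 9.95% at 10 d and 8.06% at 6 wk. Adam22 was such a gene at 12 h, when no form passed, and at 6 wk, when its smallest fold was mixed. Adam23 was such a gene at 12 h. The ratio for Adam22 was, in the authors' deposited table, 5.68 at 12 h, 2.03 at 10 d and 28.9 at 6 wk. That for Adam23 was 1.91, 41.3 and 2.14 at the same times, and that for Nlgn1 was 1.73, 1.24 and 1.12. Adam22 was thus among the genes with forms over 5 times apart in size at 12 h and 6 wk, and Adam23 at 10 d. The forms of Nlgn1 stayed within a factor of 2 throughout.

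**Figure D3:**
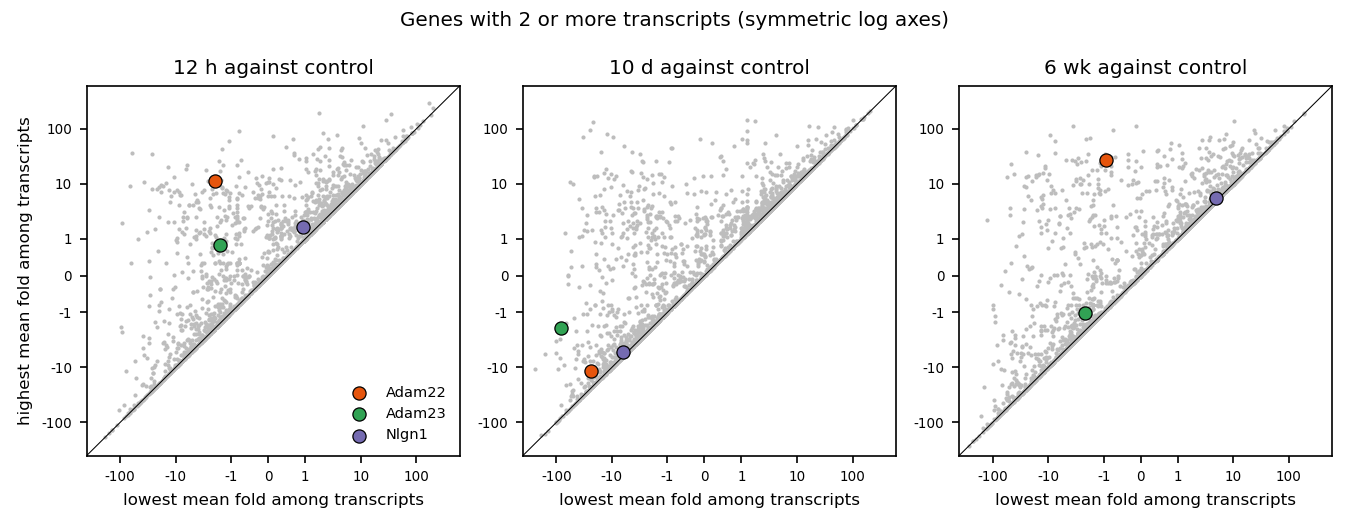
Highest against lowest mean fold among the transcripts of each gene with 2 or more, from the authors' deposited table, at 12 h, 10 d and 6 wk against control on symmetric log axes; grey points are all such genes and the line marks equal values. Adam22 (26.9 against -0.933) lies far above the line at 6 wk and Adam23 (-1.96 against -80.8) at 10 d, while Nlgn1 stays near it.

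Partner genes, 95 in 7 lists, were counted by the same rule. At 12 h 12 rose and 14 fell of 95 with a fold (27.4%), at 10 d 9 rose and 25 fell of 93 (36.6%), and at 6 wk 12 rose and 14 fell of 94 (27.7%), beside the 18.3%, 19.7% and 22.2% of all genes. The median over partners of each gene's fold in the authors' deposited table was -0.199 at 12 h, -0.925 at 10 d and 0.124 at 6 wk.

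Of the relatives Lgi2, Lgi3, Lgi4 and Adam11, 0 of 4 changed at 12 h and at 6 wk, and 2 fell at 10 d. These were Lgi2, a secreted homologue of Lgi1, at -15.9 (q = 0.0277) and Adam11, a homologue of Adam22, at -1.90 on NM_009613 (q = 0.0283) in the authors' deposited table. So at 10 d the genes Adam11, Adam22 and Adam23 of this ADAM branch were all called lower, while Lgi1 itself did not pass. The Adam22 call rested on its long form alone.

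Other genes of the neurexin side or of neurexin binding numbered 19, of which 2 rose and 3 fell at 12 h, 0 rose and 4 fell of 18 at 10 d, and 1 rose and 2 fell of 18 at 6 wk. At 12 h Clstn2, a calsyntenin, fell to -3.92 (q = 2.10e-11) and Lrrtm3, a postsynaptic neurexin ligand, to -2.66 (q = 1.67e-06) in the authors' deposited table. At 10 d Lrrtm3 fell to -5.78 (q = 0.000710) and the calsyntenin Clstn1 to -1.82 (q = 2.52e-06) in the authors' deposited table. Calsyntenins are postsynaptic proteins with cadherin domains, and both falls at 6 wk were of their genes. There Clstn1 at -2.46 and Clstn3 at -3.54 fell in the authors' deposited table, both at its lowest q of 9.82e-16.

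The LAR-type receptor phosphatases, a second presynaptic hub, and their partners gave 1 rise and 2 falls of 17 at 12 h, 1 and 6 at 10 d, and 4 and 3 at 6 wk. Slitrk genes encode postsynaptic partners of these phosphatases, and 3 of them fell together at 10 d, Slitrk1, Slitrk2 and Slitrk3. In the authors' deposited table Slitrk3 fell at 12 h to -3.81 (q = 8.14e-08), Slitrk2 at 10 d to -18.5 (q = 8.66e-16) and Slitrk1 at 6 wk to -21.4 (q = 3.22e-05). Il1rap, a shared subunit of interleukin receptors that also binds these phosphatases, rose at 10 d to 64.6 on NM_008364 (q = 8.66e-16) in the authors' deposited table. Lrrc4b, a postsynaptic leucine-rich protein, rose at 12 h to 1.05 (q = 0.000437) in the authors' deposited table. A mean so near 1 does not show that every pair of libraries rose. At 10 d and at 6 wk Lrrc4b was among the genes that fell. The phosphatase gene Ptprd fell at 6 wk to -1.66 on NM_001014288 (q = 9.82e-16) in the authors' deposited table. Ptprd was also among the genes that fell at 10 d, and Il1rap among those that rose at 6 wk.

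Latrophilin, teneurin and FLRT genes gave 2 rises and 2 falls of 10 at 12 h, and 2 rises and 1 fall at 10 d and at 6 wk. Flrt3, a latrophilin ligand, fell at 12 h to -3.07 (q = 7.97e-11) and at 10 d to -28.6 (q = 9.65e-13). Both values are those of NM_001172160 in the authors' deposited table. Flrt2 rose at 10 d to 2.88 (q = 3.96e-05) in the authors' deposited table. The teneurin gene Odz2 fell at 12 h to -2.23 (q = 6.35e-06) in the authors' deposited table. Latrophilins are receptors of this group. Their genes Lphn3 and Lphn2 rose at 6 wk to 7.75 (q = 8.76e-13) and 11.3 (q = 3.01e-09) in the authors' deposited table. Both also rose at 12 h by the same rule.

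Immunoglobulin, cadherin and ephrin adhesion genes gave 2 rises and 3 falls of 16 at 12 h and at 10 d, and 2 and 4 at 6 wk. At 12 h Efnb2, an ephrin, rose to 32.7 (q = 1.21e-15) and Ncam1, a neural cell adhesion molecule, fell to -3.30 on NM_010875 (q = 2.11e-06) in the authors' deposited table. At 10 d the ephrin receptor gene Ephb2 rose to 8.29 (q = 1.00e-08) in the authors' deposited table. Cadm3 fell there to -2.10 (q = 4.55e-09). At 6 wk Ncam2 rose to 10.4 on NM_001113208 (q = 1.60e-06) in the authors' deposited table. Nptn fell there to -3.17 (q = 5.42e-10). Ncam2 also passed as higher at 12 h and 10 d, and Cadm3 and Ncam1 as lower at 6 wk.

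The scaffolds and adaptors inside the synapse gave 4 rises and 1 fall of 18 at 12 h, 3 and 3 of 17 at 10 d, and 3 and 1 of 18 at 6 wk. Dlg4, which encodes the PSD-95 that ADAM22 and neuroligins bind, rose at 12 h to 1.69 (q = 8.20e-12) in the authors' deposited table. Apba1, a presynaptic adaptor, rose at 12 h to 2.31 (q = 1.37e-11) and at 10 d to 2.02 (q = 2.02e-05) in the authors' deposited table. The scaffold gene Shank1 fell at 10 d to -1.57 (q = 8.66e-16), and at 6 wk Lin7c rose to 2.20 (q = 2.77e-07) and Dlg1 fell to -4.12 (q = 8.86e-06), in the authors' deposited table.

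Channels and receptors that LGI1 is known to act on gave 1 rise and 3 falls of 11 at 12 h, 1 and 6 at 10 d, and 0 and 3 at 6 wk. Kcnab2, a subunit of Kv1 channels, fell at 10 d to -3.17 (q = 8.66e-16) and at 6 wk to -2.10 (q = 3.07e-14) in the authors' deposited table. In the authors' deposited table the AMPA receptor gene Gria3 fell at 12 h to -1.96 (q = 1.21e-15). At 6 wk it fell to -3.13 (q = 9.82e-16), and it was also among the genes that fell at 10 d. Gria1 fell at 10 d to -1.45 (q = 9.97e-06) in the authors' deposited table. Cacng3, an auxiliary subunit of AMPA receptors, rose at 12 h to 12.2 (q = 1.21e-15) in the authors' deposited table. Cacng3 was also the gene of this list that rose at 10 d, and Kcnab2 was among those that fell at 12 h.

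**Figure D4:**
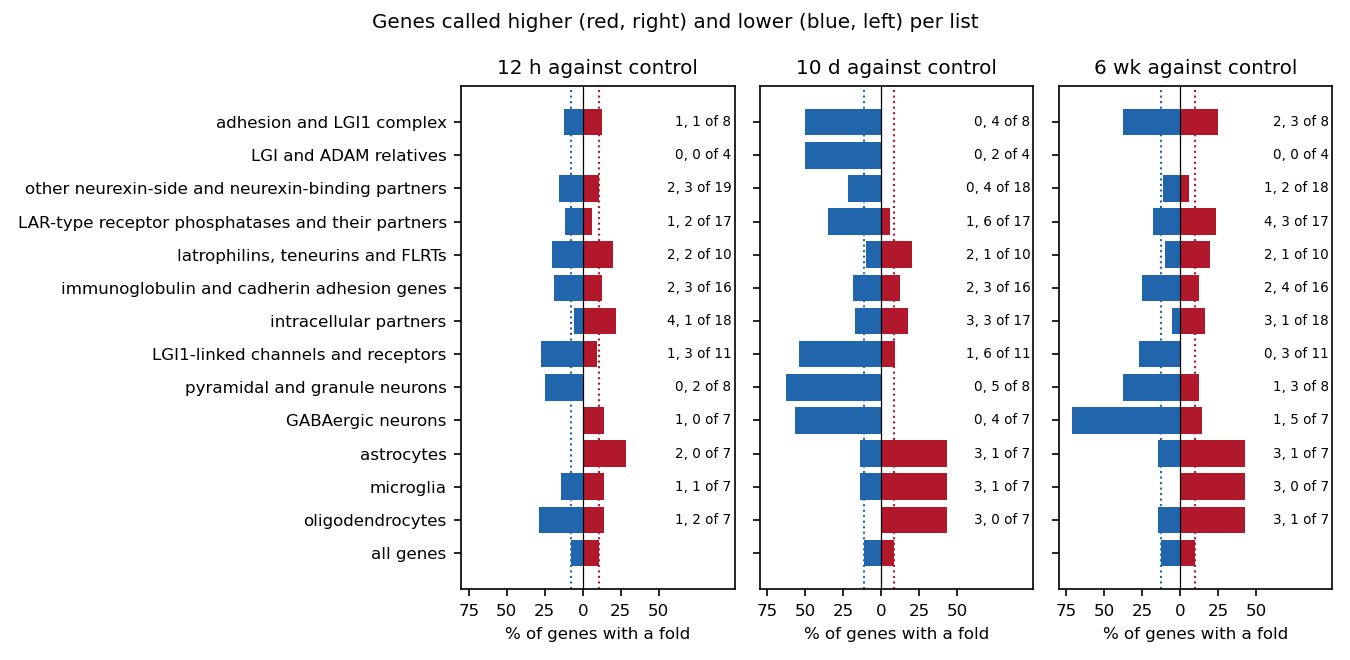
Share of genes with a fold called higher (red, to the right) and lower (blue, to the left) at 12 h, 10 d and 6 wk against control in the 8 genes, 7 partner lists, 5 cell type lists and all genes; dotted lines mark the shares over all genes, and the printed counts are higher, lower and the number with a fold. At 10 d the 8 genes have 4 falls and 0 rises, and the neuronal lists have 5 of 8 and 4 of 7 falls and 0 rises.

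Markers of cell types moved at the same times, as the plot of called shares shows. Pyramidal and granule neuron markers gave 0 rises and 2 falls of 8 at 12 h, 0 and 5 at 10 d, and 1 and 3 at 6 wk. All 8, with the granule cell genes Prox1 and Dsp among them, had a fold at every time. Most genes did, so this is no check of the labelled tissue, and no level was at hand for one. GABAergic neuron markers gave 1 rise and 0 falls of 7 at 12 h, 0 and 4 at 10 d, and 1 and 5 at 6 wk. Slc17a7, the vesicular glutamate transporter of hippocampal excitatory neurons, fell at all 3 times in the authors' deposited table, to -1.23 at 12 h (q = 0.000801), -1.92 at 10 d (q = 1.25e-10) and -2.65 at 6 wk (q = 9.82e-16). Gad1, which makes GABA, had mean folds in the authors' deposited table of 0.739 at 12 h (q = 0.197) and -1.04 at 10 d (q = 0.163), and fell at 6 wk to -2.82 (q = 5.78e-07). Falls of neuronal markers thus outnumbered rises at 10 d, when Nlgn1, Nlgn2, Adam22 and Adam23 fell. They also did at 6 wk, when Nlgn2, Lgi1 and Adam23 fell but Nlgn1 and Adam22 rose.

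More glial and vessel markers rose than fell at 10 d and 6 wk. Of 7 astrocyte markers 2 rose and 0 fell at 12 h, and 3 rose and 1 fell at 10 d and at 6 wk. Of 7 microglial markers 1 rose and 1 fell at 12 h, 3 rose and 1 fell at 10 d, and 3 rose and 0 fell at 6 wk. No list of glia had more falls than rises at 10 d or 6 wk. Oligodendrocyte markers gave 1 rise and 2 falls of 7 at 12 h, 3 and 0 at 10 d, and 3 and 1 at 6 wk. Endothelial markers gave 2 rises of 5 at 12 h and at 10 d and 3 at 6 wk, with 0 falls, and choroid plexus markers 2 rises of 5 at 12 h, 1 of 5 at 10 d and 0 of 4 at 6 wk, with 0 falls. The markers named below rose at 6 wk. Gfap, the filament gene of reactive astrocytes, rose at 12 h on NM_010277 to 2.83 (q = 1.21e-15) and at 6 wk to 10.5 (q = 9.82e-16) in the authors' deposited table, and had 8.47 at 10 d with a q of 0.194. Its other transcript NM_001131020 rose at all 3 times in the authors' deposited table, to 1.86 (q = 0.0438) at 12 h, 4.24 (q = 8.09e-07) at 10 d and 13.0 (q = 9.82e-16) at 6 wk. Csf1r, a receptor of microglia, had 1.06 at 12 h (q = 0.233) and rose to 3.89 at 10 d (q = 0.00159) and 2.66 at 6 wk (q = 2.08e-08) in the authors' deposited table. No mRNA level per library was at hand for any marker, so summed levels by group are not given, and the part of cell makeup in the changes of the 8 genes was not tested.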

How the data were processed

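Polyadenylated RNA of 8 hippocampal libraries was sequenced on a Genome Analyzer II. Reads were mapped to mm9 with Bowtie and uniquely mapped reads were counted within RefSeq exons, per the series' design text and the submitters' processing notes. The sources used here do not say how the folds and q-values were scaled and tested. The values used are the mean signed fold and the mean q-value (p-value adjusted for multiple tests) of each transcript and time, both as the authors deposited them per the file headers. The table was read with pandas 2.3.3 in Python 3.11.15. The 96 entries without a gene were left out, identical entries were counted once, and of 30 transcripts whose repeated entries differed the first was taken. A fold of 0 was taken as no fold. No new test was run, and no p was adjusted over a list.

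Calls used a mean q below 0.05 and a mean fold of size 1 or more. Over every list, the called genes with the lowest mean q were named, at most 2 a list and time, with all 8 genes of the complex and the markers Slc17a7, Gad1, Gfap and Csf1r named whatever their values. Further calls given without values, for named partner genes at times outside this rule, were chosen after their values were seen. Members and lists were chosen with earlier results of these data known. The 32 columns of values per sample hold miRNA matches and aligned tags of the small RNA regions listed beside each gene, per the file headers, and no mRNA value, so they were not used. The CREB region columns were not used either: in 100% of the region entries the offset runs to a small RNA region and not to the gene, and 22.6% to 23.0% of regions lie within 2000 bases of the gene. Whether same-lettered libraries pair could not be checked. That the replicate libraries came from separate pools of animals is stated by the design text. Alternatives varied the q threshold, the fold minimum and the way transcripts were joined into genes. Depth and the precision it gives are unknown, since no count per library was used. Promoter windows of RefSeq were placed on NCBIM37 by their full sequence.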

Additional observations from a re-analysis of the deposited data

Results flagged for a closer look

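The authors' deposited table also holds columns for 1 h and 6 h, times that no sample of this series is labelled with, and the group they were compared with is not named. Folds of these columns stand outside the comparisons above and are flagged because they pass the same rule on mean q and mean fold. The 1 h folds are whole millionths already when multiplied by 2, against 47.9% to 53.5% of those at the other times. Over all genes with a fold, 28.6% passed at 1 h and 14.8% at 6 h.

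At 1 h, 6 of the 8 genes passed. In the authors' deposited table Nlgn1 fell to -1.53 on NM_138666 (q = 0.000327) and to -1.58 on NM_001163387 (q = 7.22e-05). Nlgn2 rose to 2.40 (q = 1.71e-15) and Nlgn3 to 1.94 (q = 0.00349) in the authors' deposited table. Lgi1 fell to -1.29 (q = 2.53e-06), the long form of Adam22 to -1.61 (q = 3.33e-06) and the long form of Adam23 to -2.41 (q = 1.71e-15) in the authors' deposited table. The neuroligins thus passed in both directions at 1 h, and Nlgn2, which fell at 10 d and 6 wk, was higher there.

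At 6 h, 3 of the 8 genes passed. In the authors' deposited table Nrxn2 fell to -1.75 (q = 5.84e-08), Lgi1 fell to -1.78 (q = 3.71e-15), and the short forms of Adam22 rose to 2.99 on NM_001007220 (q = 0.0132) and 3.10 on NM_001007221 (q = 0.0107). The other transcripts did not pass at these times.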

How the results depend on the processing

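Of 6 alternative settings, none moved the count at 10 d, 4 genes, by over 1.5 times: 5 kept Nlgn1, Nlgn2, Adam22 and Adam23, all lower, and where every transcript had to pass the count was 3. At 12 h, 2 genes passed, 0 with a mean fold of at least 2, and 1 where every transcript or the first entry of a gene had to pass. At 6 wk, 5 passed, and 2 where every transcript or the first entry had to pass, since Nlgn1, Adam22 and Adam23 each had a form that did not. A q under 0.01 lost Lgi1 at 6 wk, and dropping the fold minimum left Adam22 with forms of both directions there. Of the partners, 26 passed at 12 h, 17 with a mean fold of at least 2 and 41 with no minimum; at 10 d and 6 wk the counts of partners stayed within 1.5 times. Over the single values of the 8 genes, 129 kept their side of the threshold and direction, 11 lost and 2 gained a call. A further 2 lost it with a change of sign on the first entry, Adam23 at 12 h (0.828) and Adam22 at 6 wk (-0.933). The 129 include values of genes at times without a call, which had none to lose, so they overstate how stable the calls were. No paired analysis was possible because the table gives no usable mRNA value per library, and leaving out each library was not run for the same reason. How far a fold depends on 1 library, on depth or on few reads was not tested.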
